A study of Oryza sativa Indica Group with 36 samples.

Results

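The genes described here are the 150 rice loci with the widest daily swing among those that peaked at 8:00 in leaves of the parental cultivar Guangluai4 (GL). They were drawn from 1448 loci whose highest GL hour was 8:00 with at least 10 CPM there (counts scaled by the library's total count to a common size), out of 35477 loci listed. The ranking used the highest minus the lowest hourly mean of log2(CPM + 0.5) over the GL libraries, and 3 loci were excluded by the rule. GL levels therefore chose these genes, and their GL pattern is given as a description. The series holds RNA sequencing of leaves, the uppermost ones to be fully expanded, taken from 45-day seedlings grown under natural long days. An OsPRR37 overexpression line of this cultivar, OsPRR37-OE5 (OE), and GL were each sampled every 4 hours over 1 day, with 4:00 as the first hour and 0:00 as the last and 3 biological repeats per hour, 36 libraries in all. OE is a single line, and its promoter is not given in the sources used here, so an effect of the transgene and any other difference of that line cannot be told apart.

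Leaf transcripts rise and fall over the day under the joint control of the circadian clock and of light. OsPRR37 encodes a pseudo-response regulator, a member of a clock family known in Arabidopsis for repressing morning clock genes, and in rice it delays flowering in long days. Genes that peak in the morning commonly include those for plastid metabolism, nutrient transport and the response to light. The series asks how far OsPRR37 reaches into the daily rhythms of the transcriptome and into photoperiodic flowering, and the comparison here asks what a raised OsPRR37 level went with in the genes of largest morning swing.

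Total counts ran between 8065894 and 15769659 per library, and all 150 genes were among the 21772 tested. OsPRR37 itself lay between 847 and 2001 CPM in OE libraries and between 1.35 and 424 CPM in GL libraries, and transgene and resident transcripts are not separated in these counts. At 4:00 OsPRR37 was at 847 to 1018 CPM in OE, against 1.35 to 2.98 CPM in GL. The genotype label of GL replicate 3 at 0:00 gives the OE line, but the title places the library in GL, where it was kept. At 0:00 OsPRR37 was at 4.50 to 4.76 CPM over the 3 GL libraries, this one among them, against 905 to 1206 CPM in OE. The OsPRR37 level of this library was thus that of GL. All 5 mesophyll markers were detected in both genotypes, and the meristem marker was at 0 in every library. The mesophyll marker OS02G0197600 is itself among the 150 genes, so the mesophyll sum is not independent of them. At 4:00 the summed mesophyll markers spanned 26417 to 44698 CPM in OE and 26721 to 49841 CPM in GL, and the marker of dividing cells spanned 7.74 to 11.2 CPM in OE and 10.2 to 14.01 CPM in GL. The 3 secondary wall markers summed to 3.99 to 18.6 CPM in OE and 3.60 to 16.6 CPM in GL at this hour. Their part in the results was not tested. In whole leaves, fewer cells of a type and less RNA per cell cannot be told apart.

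In GL the swing of the 150 genes ranged between 4.14 and 9.73 on the log2 scale, with a median of 5.19. The last 3 genes admitted had ranges of 4.15, 4.14 and 4.14, and the next 3 loci had 4.13, 4.13 and 4.11. The lowest GL hour was 20:00 for 78 genes, 16:00 for 44 and 0:00 for 28, and it was 4:00 for none. When the genes were chosen without 1 GL replicate, 140, 139 and 123 of the 150 chosen still peaked at 8:00 in replicate 1, 2 and 3, each left out in turn.

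The morning peak was present in OE, whose libraries took no part in the choice. In OE, all but 2 of the 150 genes had their highest hourly mean at 8:00, and 139 did so in each of the 3 replicate series. The 2 others, OS07G0147500 and OS06G0554200, had their highest mean of log2(CPM + 0.5) at 12:00, with overlapping OE libraries at 8:00 and 12:00. Expression changed over the OE day in 149 of 150 genes by the quasi-likelihood test of edgeR, with p-values adjusted by Benjamini and Hochberg's method, where 68.6% of all genes tested were called. The exception was OsNIA1, described below with its replicates. All 150 were higher at 8:00 than at 20:00 within OE, where 24.7% of all genes were called higher, with a median log2 difference of 6.16. All 150 were also higher at 8:00 than over the other OE hours, against 25.4% of all genes, with a median of 4.23. Scaling by library sums instead of TMM factors moved the median of all genes between 8:00 and 20:00 in OE to -0.90, against -0.09 with TMM, and gave a median of 5.34 for the 150.

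The medians of the 150 genes peaked at 8:00 in both genotypes and lay lower in OE at every hour. The median level of the 150 genes in OE, as log2(CPM + 0.5), was 5.24 at 4:00, 7.36 at 8:00, 5.92 at 12:00, 3.04 at 16:00, 2.31 at 20:00 and 2.74 at 0:00. In GL it was 6.11, 7.60, 6.28, 3.17, 2.80 and 3.51 at the same hours. At 4:00 the medians of single libraries were 5.42, 5.05 and 5.15 in OE, against 6.23, 6.04 and 6.24 in GL, so the groups did not overlap. Together the 150 genes took 1.45% ± 0.224 of all counts in OE at 4:00 and 2.57% ± 0.212 in GL, and at 8:00 they took 7.13% ± 0.294 in OE and 7.95% ± 0.361 in GL (SD, n = 3 each). The daily range was 3.45 to 9.99 in OE with a median of 5.32, larger than in GL for 62 genes and smaller for 88. The GL range ranked these genes, which favours smaller OE ranges, so nothing is read from that split. The hour of the lowest mean was the same in OE as in GL for 118 genes.

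**Figure D1:**
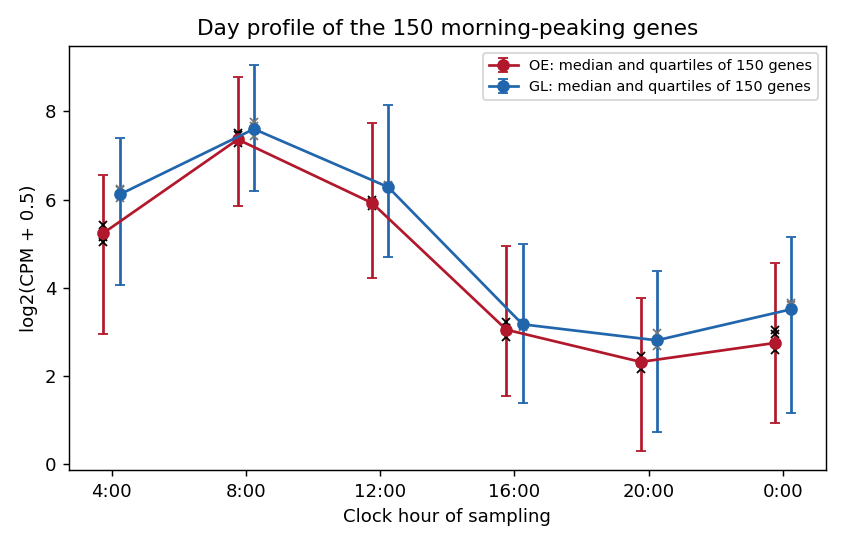
Median log2(CPM + 0.5) of the 150 genes at each clock hour in OE (red, black crosses for single libraries) and GL (blue, grey crosses), with bars for the quartiles over genes. Both lines peak at 8:00, and at 4:00 the OE median of 5.24 lies below the GL median of 6.11.

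At 4:00 the 150 genes were lower in OE by a median of 1.08 on the log2 scale, a 2.11-fold lower level. By edgeR, 77 of the 150 were lower and 0 higher in OE at an adjusted p under 0.05, where 2.51% of all genes tested were called lower and 1.97% higher. Of the 77, 54 were at least 2-fold lower. The fitted difference was negative in all but 2 genes, and the 2 positive ones, OS02G0642200 at 0.47 and OS03G0273800 at 0.02, did not pass the test. In CPM, all 3 OE libraries lay below all 3 GL libraries in 96 genes, where this held for 5.36% of all genes, and above them in 0, where it held for 13% of all genes. The CPM counts here and at the other hours use library sums. With these the median difference of all genes was 0.15 at 4:00 and 0.19 at 12:00, against -0.015 and 0.005 with TMM. The shares of all genes in CPM include that shift. The hour of 4:00 was neither the highest nor the lowest GL hour of any of these genes, although the same GL libraries that ranked the genes are on the other side of this contrast. Without replicate 2 of OE at 4:00 the count was 50, and without replicate 3 it was 48. Replicate 1 of OE at 4:00 was higher than the other 2 OE libraries by a median of 0.32 on the log2 scale over these genes, and with replicates 2 and 3 alone 106 genes were called lower. The part of that library in the result was not tested beyond these values.

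At the 8:00 peak fewer genes differed and the median difference was smaller. There 9 genes were lower in OE and 0 higher, against 1.37% of all genes called lower and 1.94% higher, with a median difference of -0.29. In CPM the OE libraries all lay below the GL libraries in 50 genes, against 6.41% of all genes, and all above in 9, against 13.8%. Since the GL level at 8:00 chose these genes, a GL value high by chance would favour a lower OE value at this hour. The count of 9 was 5 without GL replicate 1, 2 or 3 or OE replicate 3 at 8:00. Of the 77 genes lower at 4:00, 7 were also called lower at 8:00 and 70 were not.

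The climb between 4:00 and 8:00 was compared directly, in a contrast added after the other results had been seen. The median step of the 150 genes was 2.04 in OE and 1.39 in GL on the log2 scale, and every gene stepped up in both. The fitted step was larger in OE by a median of 0.78, but 5 genes passed the test of the difference with a larger step in OE and 0 with a smaller one. Over all genes tested, 0.124% passed with a larger step in OE and 0.175% with a smaller one. These were OS08G0178800, OS07G0659400, OS07G0630800, OS10G0554001 and OS01G0101700, with differences of 1.05, 0.93, 2.14, 2.05 and 0.98. Leaving out 1 library gave counts between 0 and 8, and replicates 2 and 3 alone gave 24. By 4:00 the median gene had covered 58.8% of its own daily range in OE, against 73.0% in GL. The GL level at 8:00 and the GL range chose these genes and enter the GL step and the GL percentage, whereas OE levels took no part. A GL value at 8:00 high by chance would favour a larger GL step.

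At each later hour fewer genes were called than at 4:00. At 12:00, 13 genes were lower in OE against 0.597% of all genes, with a median difference of -0.50, and 0 were higher, against 1.42%. At 16:00, 19 genes were lower, against 3.16% of all genes, and 2 were higher, against 4.75%. Those 2 were OS01G0314800, by 2.14, and OS01G0706700, by 1.91, and the median at this hour was -0.16. Each of these 2 genes overlaps a listed locus on the opposite strand. At 20:00, 24 genes were lower, against 1.41% of all genes, and 0 higher, against 1.1%, with a median of -0.41. At 0:00, 29 were lower, against 1.05%, and 0 higher, against 1.28%, with a median of -0.52, and 8 were lower there with GL replicate 3 at 0:00 grouped as OE. In CPM, all OE libraries lay below all GL libraries in 51 genes at 12:00, 31 at 16:00, 48 at 20:00 and 60 at 0:00. The same held for 3.83%, 9.01%, 9.84% and 8.08% of all genes at these hours. All OE libraries lay above all GL libraries in 5 genes at 12:00, 16 at 16:00, 6 at 20:00 and 5 at 0:00, against 14.3%, 13.6%, 10.5% and 8.39% of all genes. At 12:00 the count was 8 without GL replicate 1, 8 without GL replicate 2, 5 without OE replicate 2 and 8 without OE replicate 3. At 16:00, 20:00 and 0:00, hours that hold the GL minimum, selection on GL would favour higher OE values.

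**Figure D2:**
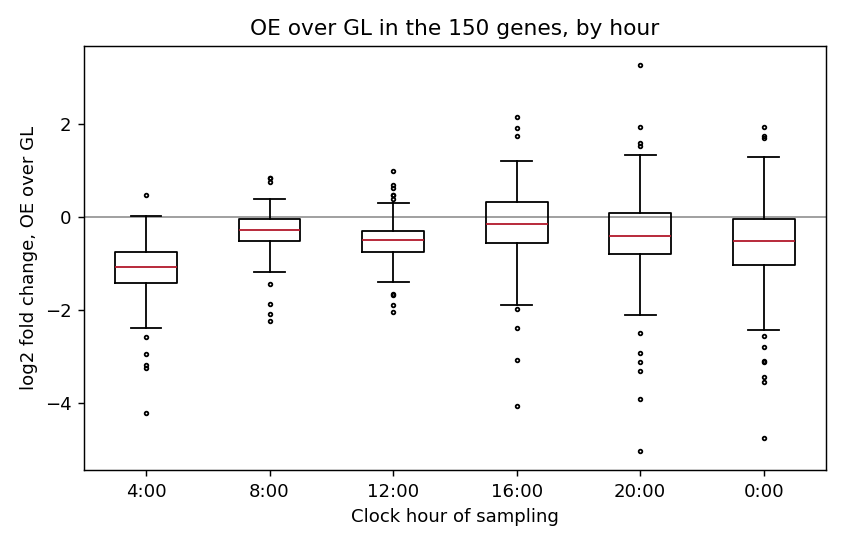
Fitted log2 fold change of OE over GL for the 150 genes at each clock hour, with boxes for the quartiles, red lines for the medians, whiskers to 1.5 times the box length and points beyond. The medians lie below 0 at all 6 hours, at -1.08 for 4:00 and -0.16 for 16:00.

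Averaged over the 6 hours, 93 of the 150 genes were lower in OE, where 12% of all genes were called lower, and 2 were higher, where 14% were. The 2 higher were OS02G0642200, by 0.54, and OS03G0273800, by 0.49, whose adjusted p was 0.0504 without OE replicate 3 at 4:00 (edgeR). The median was -0.45. Counted by hour, 67 genes were called lower at no hour, 43 at 1 hour, 14 at 2, 10 at 3, 11 at 4, 4 at 5 hours and 1 at all 6. Over all genes tested, 93.6% were called lower at no hour, 4.35% at 1 hour, 1.16% at 2, 0.441% at 3, 0.257% at 4, 0.0919% at 5 and 0.101% at all 6. The gene called at all 6 hours was OsMRS2-A, and those at 5 were OsHox22, OS07G0464200, OS03G0843800 and OS11G0644800, the last pair named after their values were seen. A genotype by hour interaction was called in 23 genes, against 1.88% of all genes. That count was 11 with GL replicate 3 at 0:00 grouped as OE and 62 with replicates 2 and 3 alone. The average, the counts by hour and the interaction include the GL peak hour and each gene's lowest GL hour, which chose these genes. That choice favours a lower OE value at the peak, a higher one at the lowest hour, and interaction calls. All genes tested were not chosen in this way, so their shares are set beside these values as a description.

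**Figure D3:**
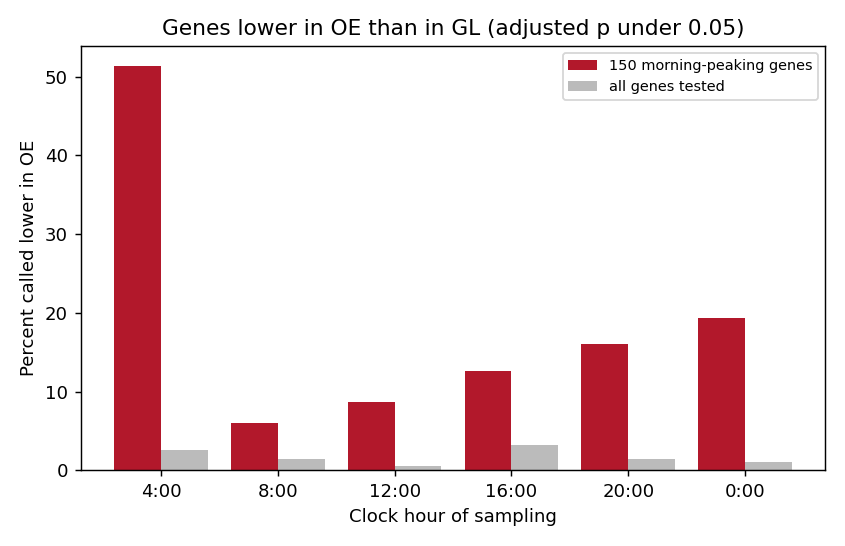
Percent of genes called lower in OE than in GL (edgeR, adjusted p under 0.05) at each clock hour, for the 150 genes (red) and all genes tested (grey). At 4:00, 77 of the 150 genes were called, against 2.51% of all genes.

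The lower level at 4:00 was seen in each class of GL minimum. It was called in 16 of the 28 genes with their GL minimum at 0:00, in 23 of 44 with it at 16:00 and in 38 of 78 with it at 20:00, with medians of -1.16, -0.90 and -1.12. Among the 1297 other loci that peaked at 8:00 in GL and were tested, 198 were lower and 12 higher at 4:00 with a median of -0.30, where 2.51% and 1.97% of all genes were. At 8:00, 70 of them were lower and 7 higher, against 1.37% and 1.94% of all genes. The difference between these loci and the 150 was not tested, since both were chosen on the GL libraries. The library kit does not mark strand, so reads of overlapping or antisense loci cannot be told apart. A listed locus overlapped 68 of the 150 genes, on the opposite strand in 63, and 18 of the genes formed 9 overlapping pairs with each other. Of the 82 genes that overlapped no listed locus, 45 were lower at 4:00, where 77 of the 150 and 2.51% of all genes were. The genes lay on all 12 chromosomes, with 32 on chromosome 1.

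Of the 150 genes, 16 were tied by hand to a symbol in the RefSeq gene table, so they are not the outcome of a search over all 150. At 4:00, 9 of these 16 were lower in OE, where 51.3% of the 150 and 2.51% of all genes were. The other 134 are given by identifier only. Coordinates are those of the deposited files, build IRGSP-1.0.

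Among the regulators, OsHox22 had the widest difference at 4:00 of the genes with a symbol. It encodes a homeodomain-leucine zipper transcription factor (OS04G0541700, chromosome 4, 27124162 to 27125433, plus strand). At 4:00 it had 14.3, 6.46 and 8.47 CPM in OE, against 77.1, 68.8 and 57.3 CPM in GL. At 8:00 it had 40.9, 30.2 and 26.3 CPM in OE, against 168, 111 and 117 CPM in GL. No OE library reached a GL library at either hour. The log2 differences were -2.95 ± 0.37 (SE) at 4:00 with an adjusted p of 5.37e-06 and -2.08 ± 0.35 at 8:00 with an adjusted p of 0.000589 (edgeR). OsHox22 was also lower at 12:00, 16:00 and 0:00. OsbZIP52, a basic leucine zipper factor (OS06G0662200), had 1.21, 2.63 and 2.96 CPM in OE at 4:00, against 1.43, 2.98 and 3.62 CPM in GL. Its groups overlapped, and its difference of -0.41 did not pass the test.

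Protein phosphatases of the 2C class remove phosphate from serine and threonine, and 2 of the genes with a symbol belong to it. They were set together after their values were seen, and the class itself was not tested. OsBIPP2C1 (OS03G0192500, chromosome 3, 4815463 to 4821450, plus strand) had 71.9, 56.4 and 64.4 CPM in OE, against 117, 135 and 134 CPM in GL, without overlap. Its difference was -1.15 ± 0.16 at 4:00 with an adjusted p of 2.24e-05 (edgeR), and it was also lower at 16:00, 20:00 and 0:00, with -0.76, -1.24 and -1.19. At 8:00 it was at 527, 688 and 527 CPM in OE and 694, 802 and 668 CPM in GL, so 1 OE library lay within the GL range. OsPP2C48 (OS05G0358500, chromosome 5) had 18.9, 22.6 and 28.9 CPM in OE at 4:00, against 36.2, 44.3 and 40.6 CPM in GL, a difference of -0.96 ± 0.19 with an adjusted p of 0.00173. OsCIPK5, a protein kinase that works with calcineurin B-like calcium sensors (OS01G0206700), differed by -0.63 at 4:00 and did not pass, while replicates 2 and 3 alone gave -0.83, with an adjusted p of 0.00253 (edgeR). It overlaps OS01G0206650, itself one of the 150, on the opposite strand, as OsBIPP2C1 and OsPP2C48 each overlap a locus outside the 150.

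The genes with a symbol included 5 transporters and the reductase OsFRO1, grouped by role after their values were seen, with no list or test of the class. Each of the 6 was called lower at 4:00, where 51.3% of the 150 genes and 2.51% of all genes were. OsMRS2-A, a magnesium transporter (OS03G0684400, chromosome 3, 27287872 to 27294359, plus strand), had 265, 199 and 221 CPM in OE at 4:00, against 411, 370 and 397 CPM in GL. At 16:00 it had 12.8, 12.0 and 12.8 CPM in OE, against 38.2, 30.7 and 26.2 CPM in GL. The groups did not overlap at any of the 6 hours, with differences of -0.94 at 4:00, -0.70 at 8:00, -0.78 at 12:00, -1.44 at 16:00, -1.34 at 20:00 and -0.97 at 0:00. OsSWEET2b, a sugar transporter (OS01G0700100, chromosome 1, 28975356 to 28977339, plus strand), had 42.3, 24.1 and 33.7 CPM in OE at 4:00, against 95.3, 80.3 and 103 CPM in GL. Its groups were apart at 4:00 and at 12:00, with differences of -1.63 and -1.67, and overlapped at 8:00, where it had 156, 202 and 126 CPM in OE and 246, 212 and 147 CPM in GL. With limma on log2(FPKM + 0.1) its adjusted p at 4:00 was 0.138.

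Of the other transporters, OsHKT2;3 and OsHKT2;4 belong to the HKT family of sodium and potassium transporters (OS01G0532600 on chromosome 1 and OS06G0701600 on chromosome 6). They are close copies of each other, and how the authors' counting divides reads between such copies is not given in the sources. At 4:00 OsHKT2;3 had 4.68, 4.28 and 8.19 CPM in OE, against 9.42, 14.01 and 13.6 CPM in GL, and OsHKT2;4 had 6.41, 6.01 and 8.88 CPM in OE, against 11.02, 17.9 and 21.5 CPM in GL. No OE library of either gene reached its GL libraries. The differences were -1.29 with an adjusted p of 3.18e-05 and -1.40 with an adjusted p of 0.0243 (edgeR). OsAMT1;1, an ammonium transporter (OS04G0509600, chromosome 4), had 184, 166 and 211 CPM in OE at 4:00, against 369, 305 and 246 CPM in GL, a difference of -0.90 with an adjusted p of 0.0338. Leaving out 1 library raised the adjusted p to at most 0.107 for OsHKT2;4 and 0.203 for OsAMT1;1. The call of OsHKT2;4 ended without GL replicate 2 or 3 of 4:00 and without any 1 of the 3 OE libraries of 4:00. The call of OsAMT1;1 ended without GL replicate 1 or 2 or any 1 OE library of 4:00, without GL replicate 2 of 12:00 and without OE replicate 2 or 3 of 8:00. With library sums the adjusted p was 0.0946 for OsHKT2;4 and 0.133 for OsAMT1;1. OsAMT1;1 overlaps 2 loci on the opposite strand. OsFRO1, a ferric reductase (OS04G0444800, chromosome 4, 22182125 to 22186984, plus strand), had 1247, 894 and 1009 CPM in OE at 4:00, against 2338, 2231 and 1811 CPM in GL. It was lower by 1.18 at 4:00, and differed by -0.98 at 16:00, -1.57 at 20:00 and -1.33 at 0:00, all called.

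The enzymes of plastid and nitrogen metabolism with a symbol did not pass the test at 4:00, though some did in other fits. OsPSY2, phytoene synthase at the entry to carotenoid synthesis (OS12G0626400), had 272, 263 and 207 CPM in OE at 4:00, against 376, 373 and 435 CPM in GL. Its groups did not overlap, but the difference of -0.82 had an adjusted p of 0.117, and a locus on the opposite strand covers it. OsSPS2, a solanesyl diphosphate synthase for plastoquinone side chains (OS05G0582300), differed by -0.59, and Os5BGlu22, a beta-glucosidase (OS05G0366600), by -0.63. Neither passed. OsSPS2 overlaps OS05G0582350, itself among the 150 genes, on the opposite strand.

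Replicate 1 stood apart for 2 of these enzymes in both genotypes. OsNIA1, nitrate reductase (OS08G0468100, chromosome 8, 23033230 to 23052438), had 333, 8.26 and 8.33 CPM in OE at 4:00, against 409, 28.8 and 29.1 CPM in GL. At 0:00 it had 105, 0.697 and 0.457 CPM in OE, against 44.8, 2.25 and 3.20 CPM in GL. Replicate 1 was the highest library of its group at every hour in both genotypes, and the difference at 4:00 of -0.56 did not pass. Replicates 2 and 3 alone gave -1.97, and the adjusted p from edgeR was then 0.000915. This locus overlaps 3 other listed loci. OsCRSH2, a plastid calcium-dependent synthase of the signal nucleotide ppGpp (OS05G0161500), had 480, 261 and 240 CPM in OE at 4:00, against 602, 401.4 and 408 CPM in GL. Its difference was -0.67 and did not pass, and replicates 2 and 3 alone gave -0.86 (adjusted p of 0.0203). OsCRSH2 overlaps a locus on the opposite strand. What set replicate 1 apart was not tested.

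**Figure D4:**
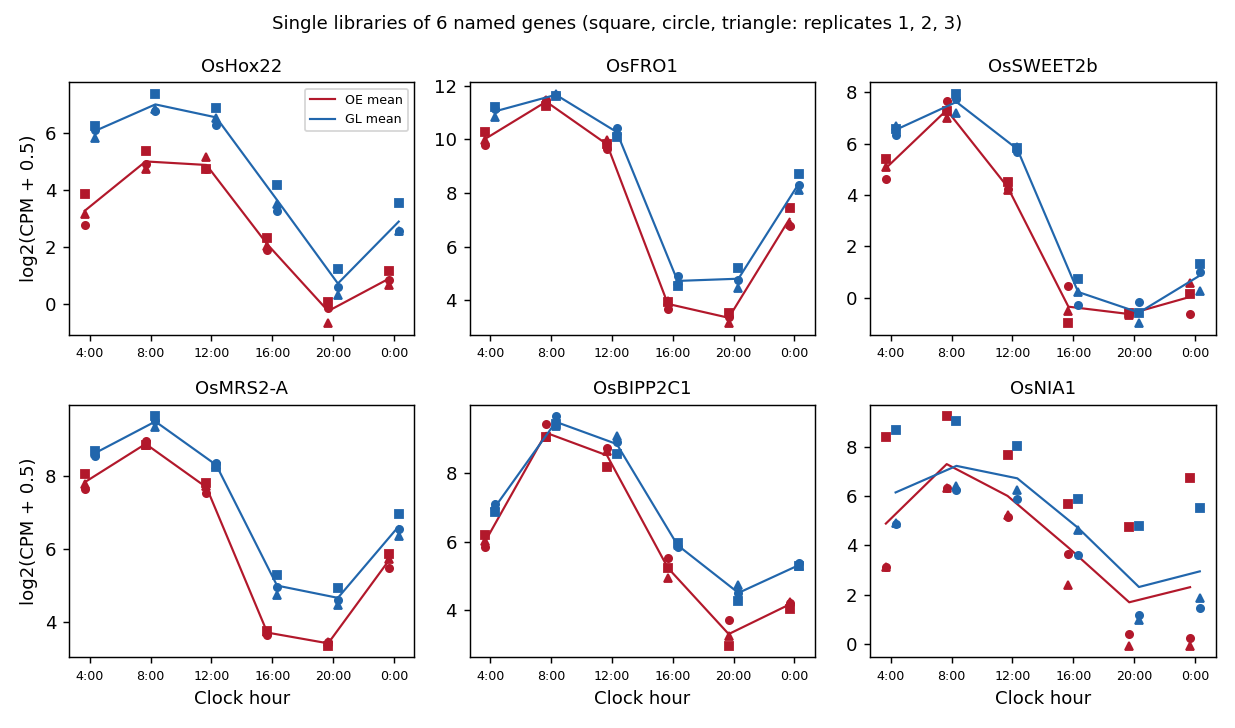
Log2(CPM + 0.5) by clock hour of 6 named genes in single libraries of OE (red) and GL (blue), with lines for the means and squares, circles and triangles for replicates 1, 2 and 3. The 6 were picked after their values were seen. OsHox22 lies lower in OE at 4:00 and 8:00, and replicate 1 of OsNIA1 lies above the others in both genotypes.

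Among the genes known by identifier, the widest GL swings were those of OS03G0228200 and OS12G0189300, with ranges of 9.30 and 9.99 in OE and 9.73 and 9.53 in GL. OS03G0228200 had 39.4, 26.8 and 29.3 CPM in OE at 4:00, against 106, 119 and 122 CPM in GL, and its difference of -2.00 had an adjusted p of 7.38e-05 (edgeR). OS12G0189300 had 295, 140 and 115 CPM in OE at 4:00, against 793, 453 and 581 CPM in GL. Its groups did not overlap, but replicate 1 was the highest library of both groups, and the difference of -1.86 did not pass. It was -2.17 in a fit of replicates 2 and 3, where the adjusted p of edgeR was 0.00144. OS12G0189300 overlaps a listed locus on the same strand. Among the genes lower over the whole day, OS07G0464200 had 82.2, 69.3 and 85.6 CPM in OE at 4:00, against 145, 167 and 155 CPM in GL. It was lower by an average of 0.90, and OS01G0101700 by 0.89. OS07G0147500 had its highest OE mean of log2(CPM + 0.5) at 12:00. Its OE libraries spanned 86.0 to 530 CPM at 8:00 and 86.0 to 330 CPM at 12:00. The OE mean in CPM was higher at 8:00, with 254 against 236, so the hour of its OE maximum depends on the scale. At 16:00 it had 12.1, 56.9 and 29.7 CPM in OE, against 456, 545 and 517 CPM in GL. That difference of -4.07 had an adjusted p of 0.00322 (edgeR). OS06G0554200, the other gene with an OE maximum at 12:00, had 6.94, 10.05 and 7.13 CPM in OE at 8:00, against 10.5, 13.4 and 10.4 CPM in GL. Its levels at 12:00 were 6.32, 10.5 and 8.81 CPM in OE and 10.8, 9.65 and 10.7 CPM in GL. OS06G0554200 overlaps a locus on the opposite strand.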

How the data were processed

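RNA sequencing libraries of 36 rice leaf samples were used, 18 per genotype, grouped by title and sampling hour. The authors ran TopHat2, Cufflinks and Cuffdiff on build IRGSP-1.0, per the submitters' processing notes. Tool versions and settings were not given in the sources used here. The deposited files hold an estimated count column of whole numbers, FPKM values and a normalized signal per locus. The deposited FPKM column served only for limma alternatives, and the deposited normalized signal only to check the count column.

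CPM was the count over the library's count sum. Counts were tested with edgeR 4.0.16 (TMM factors, 0.657 to 1.33; filterByExpr, minimum count 10 and total 15; quasi-likelihood test over all 12 groups; Benjamini-Hochberg adjustment over 21772 genes), with R 4.3.3, limma 3.58.1 and DESeq2 1.42.0 as alternatives, and Python 3.11.15. The edgeR tests averaged over the hours, at a single hour (16:00) and over the OE day were checked on simulated data. The simulated counts had the same dispersion for every gene and no effect of replicate number, so the check does not cover such spread. The interaction, the step, the block and the other tools were not simulated. Alternatives were another scaling, no filter, other tools, a replicate block, replicates 2 and 3 alone, a regrouped library and each library left out. Library sums and the step contrast were added after seeing the data. With 3 libraries per group, p-values rest on the spread between biological repeats, estimated over all 12 groups together. The sampling covers a course of 1 day.

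The genes and lists were chosen with earlier results of these data known. Genes named were those with the widest GL swing, the smallest adjusted p averaged over the hours in each direction, the largest and smallest OE minus GL daily range among interaction calls, and an OE maximum at another hour, with at most 2 genes without a symbol each. Every gene with a symbol was named in place of keyword groups, a choice made after seeing the data. Symbols come from the RefSeq gene table of assembly ASM3414082v1 and were tied to the loci by hand. The only check was a place on the same chromosome within 1 Mb, which does not by itself identify a gene. Sequences were not used here.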

Additional observations from a re-analysis of the deposited data

Results flagged for a closer look

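The genotype by hour interaction of edgeR, a test of whether the difference between OE and GL changes over the day, was called in 23 of the 150 genes. Of these, 4 are given: OS07G0630800 and OS03G0254200, whose daily range was larger in OE than in GL, and OS01G0706700 and OS08G0178800, whose range was smaller in OE. The GL range ranked the 150 genes, which favours smaller OE ranges, so nothing is read from the smaller ranges of the last pair. The same ranking favours interaction calls, so their count is given as a description.

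OS07G0630800 (interaction adjusted p of 0.000559, edgeR) had 13.7, 16.8 and 7.57 CPM in OE at 4:00, against 51.0, 65.6 and 47.1 CPM in GL, and 0.173, 0.209 and 0.0913 CPM in OE at 0:00, against 5.53, 4.04 and 4.30 CPM in GL. At 8:00 it had 197, 132 and 143 CPM in OE and 196, 146 and 142 CPM in GL, and the groups overlapped. OS03G0254200 (interaction adjusted p of 0.0115, edgeR) had 1.26, 1.25 and 1.35 CPM in OE at 20:00, against 6.35, 5.50 and 9.92 CPM in GL, with overlapping groups at 8:00. OS01G0706700 (interaction adjusted p of 0.00614, edgeR) had 2.78, 1.92 and 1.97 CPM in OE at 16:00, against 0.284, 0.564 and 0.761 CPM in GL, the only one of these 4 that was higher in OE at the hour of its largest difference. This gene overlaps a locus on the opposite strand. Its GL level at 16:00 was the lowest of its GL day and rests on a summed count of 19. Choosing genes by a low GL minimum favours a higher OE value at that hour. OS08G0178800 (interaction adjusted p of 0.000128, edgeR) had 10.6, 13.5 and 10.1 CPM in OE at 4:00, against 39.0, 40.5 and 42.1 CPM in GL, and at 0:00 it had 0.691, 0.627 and 0.730 CPM in OE and 0.537, 0.524 and 0.400 CPM in GL. For this gene 0:00 was the lowest GL hour, with a summed GL count of 18, so the same limit holds there.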

How the results depend on the processing

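The count of genes lower at 4:00 was 73 with DESeq2-type size factors (RLE), 69 without a filter on low counts, 86 with DESeq2, 70 with GL replicate 3 at 0:00 grouped as OE, 66 and 77 with limma on log2(FPKM + 0.1) and log2(FPKM + 1), and 67 with library sums. In the order step, lower at 8:00, lower at 12:00 and interaction, the main counts of 5, 9, 13 and 23 became 18, 18, 25 and 50 with DESeq2, and 1, 5, 8 and 11 with the regrouped library, which also gave 8 lower at 0:00. DESeq2 called 4 higher at 16:00, 1 at 20:00 and 1 at 0:00. Replicates 2 and 3 alone gave 24 for the step, 15 lower at 8:00, 42 at 12:00, 32 at 16:00 and 46 at 0:00, 9, 2 and 2 higher at 16:00, 20:00 and 0:00, 62 for the interaction and an averaged median of -0.50. Limma with 0.1 gave 0 for the step, 4 lower at 8:00, 1 higher at 20:00, 1 higher on average and a median of -0.56 at 12:00. With 1 it gave 14 lower at 8:00, 21 at 12:00, 1 higher on average, and medians of -0.42 on average, -0.94 at 4:00 and -0.21 at 20:00. Library sums gave 7 lower and 1 higher at 12:00, 4 higher at 16:00, and medians of -0.36 on average, -0.92 at 4:00, -0.32 at 12:00 and -0.048 at 16:00; they shifted the median of all genes by up to 0.19 at 12:00. Without the filter the step gave 1. The causes were not tested.

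The replicate numbers did not meet the rule used for pairing, since the lowest correlation of same-numbered libraries was -0.05. In the median, though, same-numbered libraries were more alike, at 0.24 against -0.18 for other numbers. Between genotypes the median for the same number was 0.22. The main fit has no replicate term, so a part shared by number stays in its spread between repeats. A fit with the replicate number as a block gave 108 genes lower at 4:00, 20 at 8:00, 36 at 12:00, 29 at 16:00 and 49 at 0:00, with 6, 2 and 1 higher at 16:00, 20:00 and 0:00, 21 for the step, 64 for the interaction and an averaged median of -0.47. At 4:00 the block also called OsPSY2, OsSPS2, OsCIPK5 and OS12G0189300 lower, with adjusted p-values of 0.0147, 0.0331, 0.04003 and 0.0230 (edgeR).

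Leaving out 1 library gave 48 to 87 lower at 4:00, 5 to 11 at 8:00, 5 to 17 at 12:00, 13 to 22 at 16:00, 16 to 26 at 20:00 and 20 to 33 at 0:00. Higher counts were 1 to 6 at 16:00, 0 to 2 at 20:00, 0 to 2 at 0:00 and 1 to 2 on average, the step count was 0 to 8 and the interaction count 16 to 30. Medians were -0.51 to -0.41 on average, -1.23 to -0.90 at 4:00, -0.39 to -0.17 at 8:00, -0.57 to -0.41 at 12:00, -0.23 to -0.09 at 16:00, -0.45 to -0.40 at 20:00, -0.67 to -0.41 at 0:00 and 0.64 to 0.98 for the step. Signs turned for OS03G0273800 at 4:00, to -0.058 with the block and -0.16 and -0.15 with limma, and it lay between -0.63 and 0.26 with 1 library left out (-0.63 without OE replicate 3, -0.00323 without GL replicate 1, both of 4:00). With 1 library left out OsNIA1 lay between -4.58 and 2.05 at 4:00 and between -1.15 and 0.33 on average, and OsCRSH2 between -0.035 and 0.34 on average. In the main fit none of these 3 genes had a called difference at the hour or average in question, except OS03G0273800 on average. With replicates 2 and 3 alone OsNIA1 was called lower at 4:00 and on average. Its values were then -1.97 and -1.33, with adjusted p-values of 0.000915 and 3.64e-05 (edgeR). Applying the rule again with other settings kept 135 to 149 of the 150 genes.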
